A study of Mus musculus with 2 samples.

Results

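The set described here holds RNA-binding and spliceosome genes, chosen by name. It takes the protein-coding rows of the deposited table whose symbol begins with Hnrnp, Snrp or U2af, with Rbm or Prpf and a number, with Sf3a or Sf3b and a number, or is Lsm and a number. The rule found 71 genes on 72 rows, of 10617 genes on 10627 rows in all. The rule itself uses names alone, but a gene had to be in the table, which lists only genes past a corrected p-value in the authors' comparison. Libraries came from nephron progenitors, the Six2-expressing cap mesenchyme of the embryonic mouse kidney, which were sorted by flow cytometry at embryonic day 15.5. The wild-type group (WT) was Six2CreGFP+;p53+/+ and the knockout group (KO) was Six2CreGFP+;p53f/f, both on a mixed background of CD1 and C57BL. Both therefore carried the Six2 Cre-GFP transgene, and only KO carried the floxed p53 alleles. The Cre acts where the Six2 promoter is active, and the number of embryos behind each library is not given in the sources used here. Each genotype had 1 library, so no value has a replicate check, and each difference compares 2 libraries, with no test of the genotypes.

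The spliceosome removes introns from precursor messenger RNA. It is built from small nuclear ribonucleoproteins (snRNPs), each a small RNA wrapped in a ring of Sm or LSM proteins with particle-specific proteins added. The hnRNP proteins coat the nascent transcript and compete with SR proteins over which splice sites are used, while RBM proteins are a looser family named for an RNA recognition motif. In kidney progenitors, as in other dividing cells, these genes are broadly transcribed and most are regarded as housekeeping genes.

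Values are read densities in RPKM, reads per unit of gene length and library size, a reading of the deposited density taken from the values. A difference is log2(KO + 1) minus log2(WT + 1), and a negative one means a lower density in KO. A gene counts as over the floor when its mean density is at least 7.30 RPKM, the median of the table. The estimated depth was about 91200000 reads for WT and 85600000 for KO. The 70 members with a gene model had at least 288 estimated reads in either library and a median of 12483 in WT and 11965 in KO. The 95% intervals given for a KO to WT density ratio are exact binomial (Clopper-Pearson) intervals from these estimated reads and cover counting error only. All 70 had an interval that excludes 1, with 43 ratios above it and 27 below. The table lists only genes with a corrected p-value under 0.05 in a comparison of the same libraries, so an interval that excludes 1 is no support for a difference here. The choice also leaves a gap around 0: no member lay between -0.043 and 0.043.

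As checks of the labels, Trp53, the floxed gene, had 33.9 RPKM (WT) and 5.38 RPKM (KO), and Six2 had 482 and 509 RPKM. The summed density of 11 nephron progenitor markers was 1129 RPKM in WT and 1178 in KO. Of these, 6 were lower in KO and 5 higher, and none was at 0 in either library. Markers of other cells were lower in KO: all 8 of stroma (264 to 124.6 RPKM summed), all 6 of ureteric bud (15.7 to 8.93), all 5 of endothelium (4.69 to 1.10), all 5 of erythroid cells (373 to 14.8) and the 4 listed of leukocytes (8.14 to 1.0). No marker of these cells that the table lists was at 0, and the part of these cells in the results below was not tested. Xist stood at 15.7 RPKM (WT) and 70.1 RPKM (KO). The 3 X-linked members, Hnrnph2 and, under the floor, Rbm3 and Rbm41, were all higher in KO. So were 107 of 191 X-linked genes over the floor (56%), where 44.2% of all genes over the floor were. The median difference of these X-linked genes was 0.072, against -0.072 over all genes. After the adjustment for GC content and exon length described below, 57 of 190 were higher, where 27% of all genes were. Hnrnph2 was then at -0.14, Rbm3 at -0.045 and Rbm41 at 0.035.

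The members over the floor differed little in size between the libraries. More of them were higher than lower in KO in the deposited densities, but not after an adjustment for GC content and exon length. Of 71 members, 62 were over the floor. Of these, 38 (61.3%) were higher in KO, against 44.2% of the 5309 listed genes over the floor, and 24 were lower. Their median difference was 0.071, where the median over all such genes was -0.072. After the adjustment, which subtracts the median of genes alike in GC content and exon length and adds back the median of all genes, 14 members were higher and 47 lower, with a median of -0.071. Higher after it were 27% of all genes. By the log2 difference in the deposited densities, none of the 62 was at least 1.5-fold higher, against 0.659% of all genes. None was at least 1.5-fold lower, against 2.41%. At a smaller difference of 0.32 or more, 3 of the 62 were higher (Hnrnpa1, Prpf39 and Prpf4b), where 5.07% of all genes were. Only 1 was lower (Snrpf), where 7.33% of all genes were. Under the floor, the KO to WT density ratio without the added 1 was 0.429 for Rbm47 and 1.54 for Rbm12b1. In the deposited densities the hnRNP and RBM genes lay mostly above 0, and the Sm and LSM ring genes lay below it.

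**Figure D1:**
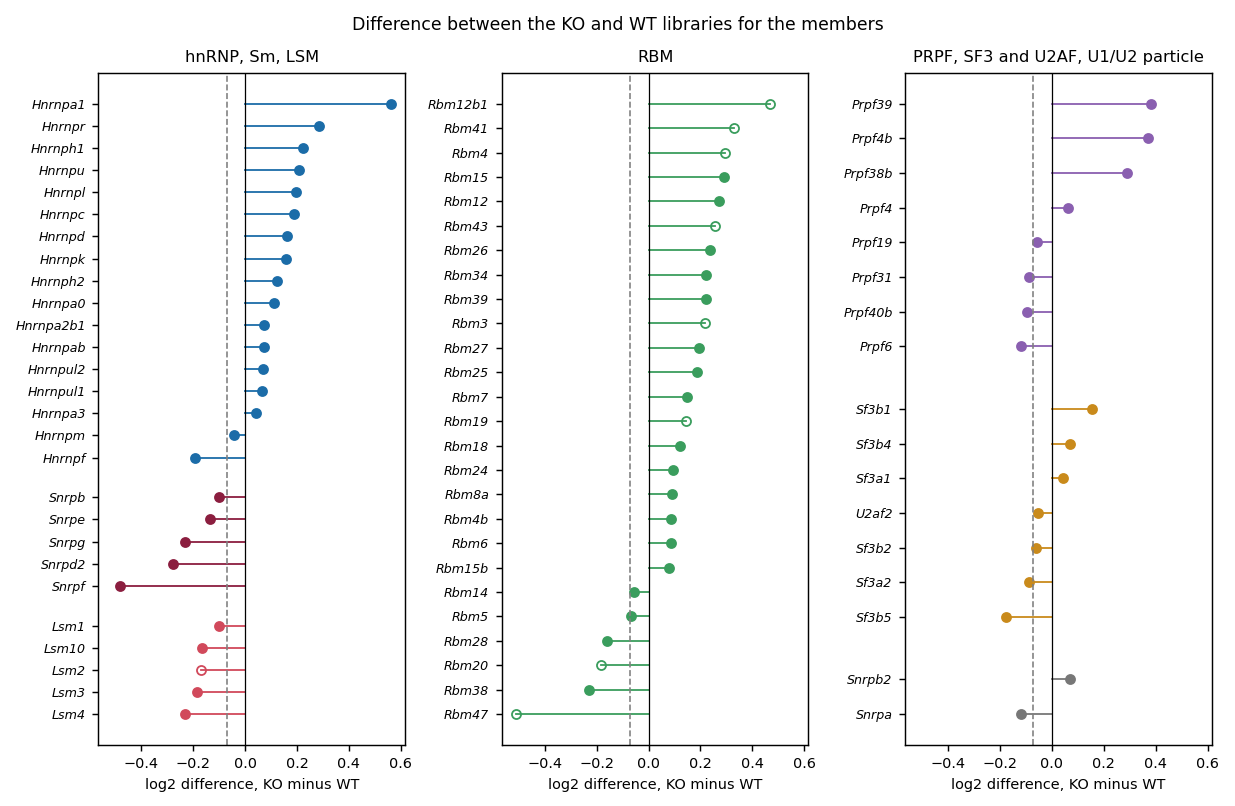
Difference between the libraries (log2(KO + 1) minus log2(WT + 1), horizontal axis) of the members, grouped by protein class; filled points are over the density floor, open points under it, and the dashed line is the all-gene median (-0.072). The hnRNP points lie mainly to the right of 0, and all Sm and LSM points to the left.

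The hnRNP genes were the most abundant class and the one most often higher in KO in the deposited densities. All 17 were over the floor, 15 were higher and 2 lower, where 44.2% of all genes over the floor were higher. The median difference of the hnRNP genes was 0.12. After the adjustment, 6 of 17 were higher, where 27% of all genes were, and the median was -0.064. Their summed density was 2163 RPKM in WT and 2382 in KO, a ratio of 1.10.

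Hnrnpa1 encodes hnRNP A1, which represses splice sites and opposes SR proteins (ENSMUSG00000046434, chromosome 15, 103240432 to 103244955, plus strand of GRCm38). It had 141 RPKM (WT) and 209 RPKM (KO). The difference was 0.56, the largest positive one of the members over the floor, with a density ratio of 1.48 (95% interval 1.46 to 1.5). In the authors' deposited table Hnrnpa1 was 1.54-fold higher in KO, because their fold carries a further scaling of 1.04 between the libraries. Hnrnpa1 is also one of the members whose reads can be split among copies. Of the 50-base windows of its longest coding transcript, 46.4% occur exactly in 19 other annotated genes, 18 of them pseudogenes. How reads that match several places were counted is not given in the sources used here, so this value is uncertain.

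A stretch of the Hnrnpa1 coding sequence (GENCODE vM21, GRCm38, chr15:103242058-103242239, plus strand, coding bases 435 to 524, a range that spans an intron) shows how close the copies are; the capitals mark 50 bases found unchanged in 9 other genes, 8 of them pseudogenes, and 865 of 1070 coding windows (80.8%) are shared in this way.
Hnrnpa1 coding sequence: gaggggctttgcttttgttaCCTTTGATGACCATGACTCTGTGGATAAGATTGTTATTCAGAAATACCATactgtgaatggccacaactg

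Hnrnpa0 had the highest density of all members, at 514 RPKM (WT) and 556 RPKM (KO). It encodes a single-exon relative of hnRNP A1 that binds AU-rich elements. Its longest coding transcript shares no 50-base window with another gene, and its ratio was 1.08 (95% interval 1.07 to 1.09), a difference of 0.11. Hnrnpr, whose protein is closely related to Syncrip, had 51.8 RPKM (WT) and 63.3 RPKM (KO), with a difference of 0.29 and a ratio of 1.22 (95% interval 1.21 to 1.23). Hnrnph1 had 43.3 RPKM (WT) and 50.7 RPKM (KO) and its X-linked relative Hnrnph2 48.3 RPKM (WT) and 52.6 RPKM (KO); both proteins bind runs of G. Hnrnpu, which organises chromatin-associated RNA, had 158 RPKM (WT) and 182 RPKM (KO), with a difference of 0.21.

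The other hnRNP genes were mostly higher in KO as well. Hnrnpc, which binds uridine tracts, had 166 RPKM (WT) and 189 RPKM (KO). Hnrnpl, which binds CA repeats, had 54.5 RPKM (WT) and 62.5 RPKM (KO). The KO to WT ratios were 1.14 (95% interval 1.13 to 1.15) and 1.15 (95% interval 1.13 to 1.17). Hnrnpk, a KH-domain protein that binds C-rich sequence, had 49.0 and 54.8 RPKM in WT and KO, and Hnrnpd, also called AUF1, had 26.4 and 29.7 RPKM. Hnrnpa2b1 (243 and 256 RPKM), Hnrnpab (292 and 307 RPKM), Hnrnpul1 (73.7 and 77.2 RPKM), Hnrnpul2 (77.8 and 81.6 RPKM) and Hnrnpa3 (39.4 and 40.7 RPKM) were also higher, each by less than Hnrnpa0 in ratio. The Hnrnpa3 value is uncertain, because its sequence is shared with 46 other genes, 41 of them pseudogenes.

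Hnrnpf and Hnrnpm were the hnRNP genes that were lower in KO. Hnrnpf, a binder of G runs like Hnrnph1, had 91.1 RPKM (WT) and 79.6 RPKM (KO), a difference of -0.19, and 67.3% of its 50-base windows occur in other genes. Hnrnpm had 93.1 RPKM (WT) and 90.4 RPKM (KO), a difference of -0.043. The authors' deposited table gives Hnrnpm as 1.01-fold higher in KO. Hnrnpm, U2af2 and Rbm14 were the 3 members whose direction differs between the densities and the authors' deposited table, which lists 47 members higher and 24 lower.

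**Figure D2:**
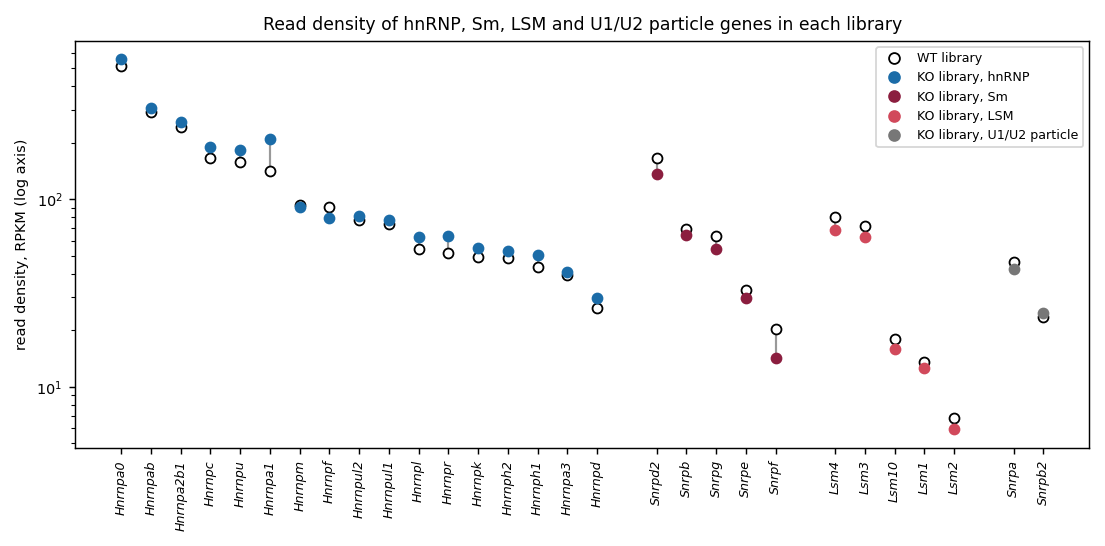
Read density (RPKM, logarithmic vertical axis) of each hnRNP, Sm, LSM and U1/U2 particle gene (horizontal axis), with the WT library as an open circle and the KO library as a filled one, coloured by class and joined by a grey line. Hnrnpa0 is the highest at 514 RPKM (WT) and 556 RPKM (KO), the filled circle of Hnrnpa1 stands clear above its open one, and those of all Sm and LSM genes lie below theirs.

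The Sm proteins form the ring that clasps the U1, U2, U4 and U5 RNAs, and all 5 listed Sm genes were lower in KO. Their median difference was -0.23, and their summed density was 350.5 RPKM in WT and 298 in KO, a ratio of 0.850. Snrpd2 (SmD2; ENSMUSG00000040824, chromosome 7, 19149722 to 19152735, plus strand) was the most abundant, at 165 RPKM (WT) and 136 RPKM (KO), with a ratio of 0.823 (95% interval 0.811 to 0.836) and a difference of -0.28. Snrpg (SmG; ENSMUSG00000057278, chromosome 6, 86371583 to 86378902, plus strand) had 63.7 RPKM (WT) and 54.0 RPKM (KO), with a difference of -0.23 and a ratio of 0.848 (95% interval 0.822 to 0.875). Snrpb (SmB; 69.1 and 64.3 RPKM) and Snrpe (SmE; 32.9 and 29.8 RPKM) showed differences of -0.10 and -0.14. The differences of the Sm genes thus ranged from that of Snrpb to that of Snrpf.

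Snrpf (SmF; ENSMUSG00000020018, chromosome 10, 93583029 to 93589706, minus strand) had the largest negative difference of the members over the floor, -0.48, at 20.2 RPKM (WT) and 14.2 RPKM (KO). This value is uncertain. Of its exon bases, 85.4% overlap genes on the opposite strand, Ccdc38 and 4933408J17Rik, and whether counting used strand is not given in the sources used here. Ccdc38 itself had 1.05 and 0.804 RPKM. Of the 50-base windows of Snrpf, 89.5% also occur in other annotated genes, 5 in all, 3 of them pseudogenes. Windows were matched on both strands, so this share can include the overlapping genes and is not a separate ground.

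Snrpg also shares coding sequence with other annotated genes, as a coding stretch shows (GENCODE vM21, GRCm38, chr6:86371587-86376533, plus strand, coding bases 5 to 94, a range that spans introns). The capitals mark 50 bases found unchanged in 3 other genes, 2 of them pseudogenes, and all of its 179 coding windows are shared in this way.
Snrpg coding sequence: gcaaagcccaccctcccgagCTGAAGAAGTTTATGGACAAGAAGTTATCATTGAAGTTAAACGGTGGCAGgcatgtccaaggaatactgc

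LSM proteins are the Sm-like proteins that ring the U6 RNA or, in the cytoplasm, the ends of messenger RNAs being decapped. Of 5 listed LSM genes, 4 were over the floor and all 4 were lower in KO, with a median of -0.18 and a summed density over those 4 of 184 RPKM in WT and 160.1 in KO. Lsm4, a member of both rings, had 80.6 RPKM (WT) and 68.5 RPKM (KO), with a difference of -0.23 and a ratio of 0.850 (95% interval 0.821 to 0.879). Lsm3, also in both rings, had 72.0 RPKM (WT) and 63.1 RPKM (KO), a ratio of 0.876 (95% interval 0.858 to 0.896). Both are the abundant transcripts of the class. Lsm10, part of the U7 particle that processes histone transcripts, had 18.1 and 16 RPKM, and Lsm1, specific to the cytoplasmic decay ring, had 13.5 and 12.5 RPKM. Lsm2, under the floor at 6.82 and 5.95 RPKM, was lower in KO as well. None of the LSM genes over the floor has more than 20% of its 50-base windows in other genes, and 3 of the 5 Sm genes have at most that share and were lower in KO.

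Taken as 1 group, 9 of 9 Sm and LSM genes over the floor were lower in KO, with a median of -0.19, where 44.2% of all genes over the floor were higher. Of the other 53 members over the floor, 38 were higher and 15 lower. Ring genes are short, and short genes were lower in KO across the table. Of 1523 genes over the floor whose exon length lies within the range of the ring genes (861 to 3093 bases), 72.9% were lower, with a median of -0.13. After the adjustment, the ring genes had a median of -0.23 and 8 of 9 were below 0. Snrpb was the exception, at 0.0090. Of all genes over the floor, 27% were above 0 after the adjustment, and their median was -0.072.

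Among proteins specific to a particle, Snrpa (U1 A) had 46.1 RPKM (WT) and 42.3 RPKM (KO) and Snrpb2 (U2 B'') had 23.5 RPKM (WT) and 24.7 RPKM (KO). Their differences were -0.12 and 0.069, so this pair of related proteins, which bind stem loops of the U1 and U2 RNAs, stood on opposite sides of 0. After the adjustment, both were negative, at -0.034 and -0.20. The median of all genes was then -0.072, so Snrpa lay above that median and Snrpb2 below it.

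SF3a and SF3b, parts of the U2 snRNP that grip the branch point, and U2AF, which reads the polypyrimidine tract, were mixed. Of 7 such genes, all over the floor, 3 were higher and 4 lower, with a median of -0.055. After the adjustment, 1 of 7 was higher. Of all genes over the floor, 44.2% were higher in the deposited densities and 27% after the adjustment. Sf3b1, the large scaffold subunit that is often mutated in myelodysplasia, had 54.7 RPKM (WT) and 61.1 RPKM (KO), with a difference of 0.16 and a ratio of 1.12 (95% interval 1.10 to 1.13). Sf3b5, a small subunit of the same complex, had 188 RPKM (WT) and 166 RPKM (KO), with a difference of -0.18 and a ratio of 0.884 (95% interval 0.874 to 0.894). Subunits of 1 complex thus stood on both sides of 0, in the densities as deposited. After the adjustment, both Sf3b1 (-0.14) and Sf3b5 (-0.32) were negative, where the median of all genes was -0.072. Sf3a1 had 40.3 and 41.6 RPKM and Sf3b4 had 37.6 and 39.6 RPKM. Sf3b2 (123 and 117 RPKM), Sf3a2 (44.2 and 41.5 RPKM) and U2af2, the large U2AF subunit (100 and 96.2 RPKM), were slightly lower in KO.

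The PRPF proteins, named for yeast mutants in precursor RNA processing, act at several steps. All 9 were over the floor, 5 higher and 4 lower, with a median of 0.060. After the adjustment, 3 of 9 were higher, with a median of -0.070. The shares of all genes over the floor that were higher were 44.2% before the adjustment and 27% after it. Prpf39, a U1-associated protein, had 13.9 RPKM (WT) and 18.4 RPKM (KO), with a difference of 0.38 and a ratio of 1.33 (95% interval 1.30 to 1.35). Prpf4b, a kinase of the tri-snRNP, had 38.7 RPKM (WT) and 50.3 RPKM (KO), with a difference of 0.37 and a ratio of 1.30 (95% interval 1.28 to 1.32). Prpf38b, a protein with an SR-rich tail, had 23.8 RPKM (WT) and 29.2 RPKM (KO), a difference of 0.29. These were the class's largest differences, all toward KO, and after the adjustment they were 0.087, 0.075 and 0.12. The other PRPF genes lay closer to 0. Prpf4 (13.2 and 13.8 RPKM), of the U4/U6 particle, was higher. Prpf19 (36.0 and 34.5 RPKM), the ubiquitin ligase of the complex that bears its name, Prpf31 (15.3 and 14.3 RPKM), Prpf40b (8.73 and 8.09 RPKM) and Prpf6 (14.7 and 13.4 RPKM), a bridging protein of the tri-snRNP, were lower.

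The 26 RBM genes were less abundant, with 18 over the floor: 14 were higher and 4 lower, with a median of 0.11 and a summed density of 427 RPKM in WT and 456 in KO. Of all genes over the floor, 44.2% were higher in the deposited densities. After the adjustment, 3 of the 17 RBM genes with a gene model were higher, where 27% of all genes were, and their median was -0.044. Rbm15b was the most abundant, at 76.4 RPKM (WT) and 80.8 RPKM (KO). It and Rbm15 recruit the enzyme complex that places N6-methyladenosine on RNA, Xist included. Rbm15 had 12.2 RPKM (WT) and 15.1 RPKM (KO), with a difference of 0.29 and a ratio of 1.24 (95% interval 1.2 to 1.28), and its difference after the adjustment was 0.29. Rbm15b stands on a second row of the table, chromosome 9 from 106880929 to 106882289, at 3.90 RPKM (WT) and 2.25 RPKM (KO). The main row covers 106883985 to 106887000, and the RefSeq gene Rbm15b spans both.

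Several RBM proteins have known ties to p53 or to cell fate. Rbm38, itself a p53 target whose protein controls p53 and p21 messages, had 10.9 RPKM (WT) and 9.12 RPKM (KO), with a difference of -0.23 and a ratio of 0.838 (95% interval 0.793 to 0.886). This was the largest negative difference of the RBM genes over the floor in the deposited densities. After the adjustment Rbm38 was at -0.15 and Rbm28 at -0.31, where the median of all genes was -0.072. Rbm24, its closest relative and a regulator of muscle splicing, had 10.4 RPKM (WT) and 11.1 RPKM (KO), a difference of 0.096. Rbm5 and Rbm6, neighbours in the genome and regulators of apoptosis-related splicing, had 26.0 and 24.7 RPKM and 23.4 and 24.9 RPKM, differences of -0.067 and 0.086. Rbm10, the relative of both, is not analysed here, and neither is Snrpn, the imprinted counterpart of Snrpb.

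The remaining RBM genes over the floor were mostly higher in KO. Rbm12 (12.9 and 15.8 RPKM), Rbm26 and Rbm27 (10.7 and 12.8 RPKM and 8.68 and 10.1 RPKM), which serve nuclear RNA decay, and Rbm34 (9.52 and 11.3 RPKM) had differences between 0.19 and 0.27. Rbm39 (28.9 and 33.8 RPKM) and Rbm25 (38.9 and 44.4 RPKM), splicing regulators with SR-like domains, were higher too. So were Rbm7 (27.7 and 30.8 RPKM), of the nuclear exosome targeting complex, Rbm18 (11.1 and 12.1 RPKM), Rbm4b (22.5 and 24.0 RPKM) and Rbm8a (30.2 and 32.2 RPKM), the Y14 core of the exon junction complex. Rbm28, a nucleolar protein (15.4 and 13.7 RPKM), and Rbm14, a paraspeckle protein (50.9 and 48.9 RPKM), were lower. About 33.1% of the exon bases of Rbm12 overlap Cpne1 and a read-through gene on the same strand, so its reads may be shared with theirs; Cpne1 had 23.3 RPKM in WT and 24.1 in KO.

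RBM genes under the floor numbered 8, and folds on the log2(density + 1) scale understate their changes. Rbm47, an epithelial splicing regulator, had 1.10 RPKM (WT) and 0.470 RPKM (KO), a density ratio of 0.429 (95% interval 0.372 to 0.492) and a difference of -0.51. Epithelial and other non-progenitor markers were lower in KO too, among them Epcam (10.6 RPKM in WT and 7.01 in KO) and Fxyd2 (18.9 and 2.25). The part of such cells in the Rbm47 value was not tested, and in these bulk libraries fewer cells of a type and less RNA per cell cannot be told apart. Rbm3, the cold-inducible RNA-binding protein, had 4.05 RPKM (WT) and 4.87 RPKM (KO), a difference of 0.22. Rbm20, a regulator of titin splicing in the heart, had 3.26 and 2.75 RPKM, and Rbm19, a nucleolar protein, had 5.13 and 5.77 RPKM. Rbm43 (2.89 and 3.65 RPKM), Rbm41 (1.47 and 2.10 RPKM), Rbm4 (3.38 and 4.38 RPKM) and Rbm12b1 (2.49 and 3.83 RPKM) were higher in KO. Of the 50-base windows of Rbm4 and Rbm12b1, 66.5% and 63.1% occur in other genes, so these values are uncertain.

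The base composition of the genes ran with the difference. Across 5263 genes over the floor with a gene model, GC content of the longest coding transcript and the difference had a Spearman rho of -0.54, and across the 61 such members a rho of -0.51 (Pearson's r -0.46). These points are genes measured in the same 2 libraries and are not independent replicates. Of the 20% of genes with the lowest GC content, 88.3% were higher in KO with a median of 0.17, and of the 20% with the highest, 11.3% were higher with a median of -0.15. Of the members, 21 of 23 with such low GC content were higher and 0 of 7 with such high GC content. In the 3 classes between them, from low to high GC content, 6 of 12, 5 of 11 and 5 of 8 members were higher, where the shares of all genes were 62.4%, 38.4% and 20.7%. The members had a median GC content of 47.1%, against 50.7% of all genes over the floor.

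**Figure D3:**
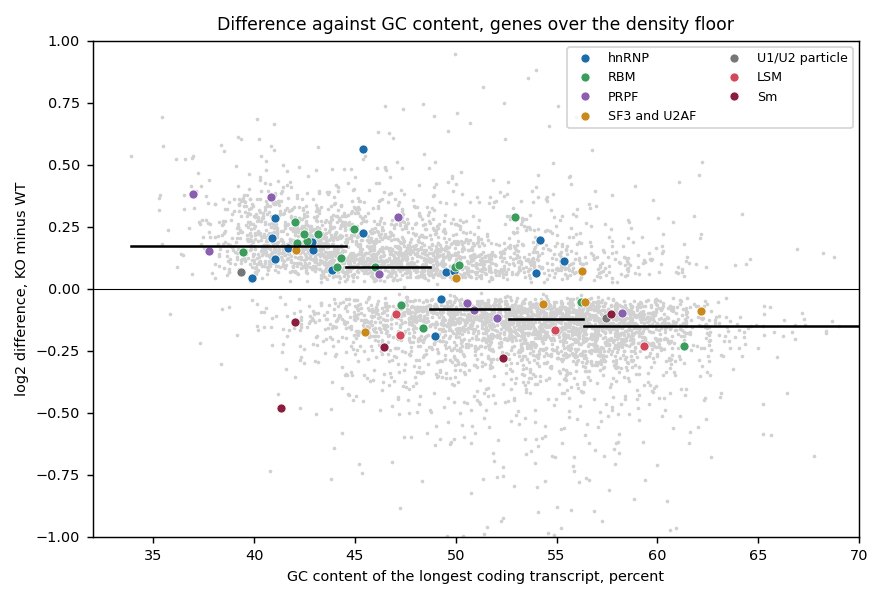
Difference between the libraries (log2 scale, vertical axis) against GC content of the longest coding transcript (percent, horizontal axis) for all genes over the floor (grey) and the members (coloured by class); black bars are the median of each 20% of genes by GC content, and 58 genes lie outside the plotted ranges. The bars step down from 0.17 to -0.15, and members with low GC content lie mostly above 0.

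Exon length ran the other way. Its rho with the difference was 0.34 across all these genes and 0.62 across the members. The members had a median exon length of 5439 bases, against 4014. Among the shortest 20% of genes 0 of 5 members were higher, where 25.7% of all genes were. Among the longest 20% it was 13 of 16, where 70.4% of all genes were. The adjustment used 10 bins of GC content and 4 of length. The 14 of 61 members above 0 after it stood against 27% of all genes, and their median of -0.071 against -0.072. A linear fit on GC content and log2 length gave 21 of 61 members above 0 (34.4%), against 34.3% of all genes.

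By class, the adjustment moved the hnRNP genes from a median of 0.12 to -0.064 and the RBM genes from 0.11 to -0.044. The Sm genes went from -0.23 to -0.27, and the LSM genes went from -0.18 to -0.13. Hnrnpa1 was at 0.42 after the adjustment, Rbm15 at 0.29, Hnrnpl at 0.23 and Hnrnpa0 at 0.17. Hnrnpr, with the longest gene model of the members, was at -0.0099. Snrpf was at -0.69, the only member over the floor at least 1.5-fold lower after it. Under the floor, Rbm47 was at -0.68. Whether GC content and length act through library preparation or vary with the biology of these genes was not tested.

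**Figure D4:**
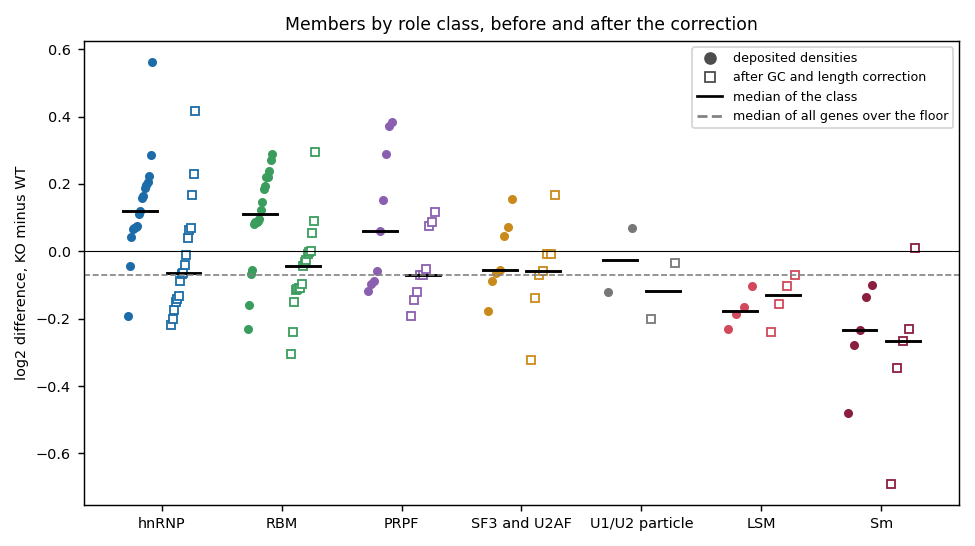
Difference between the libraries (log2 scale, vertical axis) of each member over the floor, by protein class (horizontal axis), in the deposited densities (filled circles) and after adjustment for GC content and exon length (open squares); black bars are class medians and the dashed line is the all-gene median (-0.072). The hnRNP and RBM medians move from above 0 to close to the line, and the Sm and LSM medians stay below it.

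Members with little sequence shared with other genes were counted on their own, in the deposited densities. Without the members that have more than 20% of their 50-base windows in other genes, 31 of 49 members over the floor were higher and 18 lower, with a median of 0.080. Rbm15b, whose row has no gene model, is counted among the 49. All 11 remaining hnRNP genes and 12 of 16 RBM genes were higher, where 44.2% of all genes over the floor were. All 3 remaining Sm genes, Snrpg with its shared coding sequence among them, and all 4 LSM genes were lower. The values of all 15 members with more than 20% of their windows shared are uncertain in this respect. Beside those named above for it, they include Sf3b4 (51.2%), Rbm4b (50.5%), Hnrnpk (37.8%), Rbm12 (32.6%) and Snrpa (31.1%). U2af2 (29.9%), Hnrnpab (29.0%), Hnrnpm (28.8%) and Snrpe (20.8%) are the others.

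The DNA just upstream of the genes was read for motifs. RefSeq (GRCm38.p6) gave 77 windows of 250 bases before the start site for 58 members, and 21263 windows for all protein-coding genes. The windows of members had a median of 19 CpG sites, against 10, and a median GC content of 58.4%, against 55.6%. Each motif was searched on both strands. The CCAAT box stood in 51.9% of the members' windows and 35.4% of all windows, and the SP1 box GGGCGG in 49.4% and 42.6%. The ETS core CCGGAAG stood in 18.2% and 8.98%, the E2F site TTGGCGC in 7.79% and 2.49%, and the NRF1 core GCATGCG in 6.49% and 3.73%. The YY1 core AAGATGG (2.6% and 4.13%) and the TATA box TATAAA (9.09% and 11.6%) were less frequent in members' windows. Among the 25 hnRNP windows, from 16 genes, the share with a CCAAT box was 68% and with an SP1 box 72%. In RBM windows these shares were 42.3% and 26.9%, and in Sm and LSM windows 50% and 37.5%. The p53 response element, searched as a pair of its repeats with up to 13 bases between them, was in 0 of 77 members' windows and in 10 of 21263 windows in all. Several windows of 1 gene can overlap, and a match is a description of letters only.

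The windows of Hnrnpa1 and Prpf39 are shown because these genes had the largest positive differences of the members over the floor. They are from RefSeq, GRCm38.p6, both on the plus strand, at chr15:103240147-103240396 and chr12:65036084-65036333. Capitals mark the motifs found, which are 2 SP1 boxes and 4 CCAAT boxes in Hnrnpa1 and 1 SP1 box in Prpf39.
Hnrnpa1 upstream: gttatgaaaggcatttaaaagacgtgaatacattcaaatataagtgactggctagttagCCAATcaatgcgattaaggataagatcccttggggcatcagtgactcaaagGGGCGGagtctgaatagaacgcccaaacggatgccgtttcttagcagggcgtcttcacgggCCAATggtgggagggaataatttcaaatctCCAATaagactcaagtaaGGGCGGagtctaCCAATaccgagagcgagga
Prpf39 upstream: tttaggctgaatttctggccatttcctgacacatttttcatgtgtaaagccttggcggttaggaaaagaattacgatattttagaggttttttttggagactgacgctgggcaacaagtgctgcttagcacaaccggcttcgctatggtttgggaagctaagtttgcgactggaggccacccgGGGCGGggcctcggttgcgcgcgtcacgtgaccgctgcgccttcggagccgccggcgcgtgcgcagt

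Partners of the members in splicing and RNA decay were counted from lists drawn up with earlier results of these data known. No list had a gene over the floor past 1.5-fold in either direction, where 0.659% of all genes were higher and 2.41% lower by that much. Of all genes over the floor, 44.2% were higher in KO in the deposited densities, and 27% after the adjustment. SR factors, which promote exon inclusion, were all higher: 10 of 10 over the floor, with a median of 0.31 that became 0.093 after the adjustment, with 6 of 10 then higher. Tra2b, with the largest difference, had 20.4 RPKM (WT) and 27.9 RPKM (KO). Their median GC content was 42.3%, lower than that of the members. Other splicing regulators were higher in 20 of 28, with a median of 0.13 (-0.060 after the adjustment, with 11 of 28 higher). Syncrip, the relative of Hnrnpr, had 26.0 RPKM (WT) and 38.2 RPKM (KO), and Rbpms had 20.3 RPKM (WT) and 15.6 RPKM (KO).

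Core spliceosome partners had members on both sides of 0. The shares of all genes over the floor that were higher in KO were 44.2% in the deposited densities and 27% after the adjustment. The snRNP proteins outside the name rule were higher in 4 of 10 and lower in 6, from Luc7l2 (0.33) to Phf5a (-0.11), and in 2 of 10 after the adjustment. Proteins of the PRPF19 complex and of single splicing steps were higher in 8 of 13 (2 of 13 after the adjustment), with Rnps1 at 62.4 RPKM (WT) and 45.0 RPKM (KO) and Bcas2 at 11.2 RPKM (WT) and 12.7 RPKM (KO). Spliceosomal helicases were higher in 4 of 6, from Dhx15 (0.22) to Ddx41 (-0.094), and in 0 of 6 after the adjustment. The SMN complex, which loads Sm rings onto their RNAs, was higher in 3 of 6, with a median of -0.012, and in 1 of 6 after the adjustment. Within it, Strap had 44.9 RPKM (WT) and 54.2 RPKM (KO), and Prmt5, which methylates Sm proteins, had a difference of -0.19.

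Kinases, exon junction genes and decay genes form the other lists. Beside them, 44.2% of all genes over the floor were higher in KO in the deposited densities. SR protein kinases were higher in 2 of 4, Prpf4b among them as a member of both sets, and Clk3 had a difference of -0.18. Exon junction complex genes were higher in 3 of 4, from Upf2 (0.13) to Eif4a3 (-0.095). Cytoplasmic decay genes were higher in 10 of 12, with Cnot7 at 0.31 and Pan2 at -0.12. After the adjustment the medians of these lists were -0.084, -0.058 and -0.076, close to the median of all genes. Higher were then 1 of 4, 1 of 4 and 4 of 12 genes, where 27% of all genes were.

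The genes described are not the whole of these families. GENCODE vM21 has 107 protein-coding symbols of this pattern, and 33 of them are not analysed here. They include 6 of the LSM genes, 3 of the Sm genes and 13 RBM genes, so the ring counts cover only part of each ring. A further 3 genes were listed under older symbols outside the rule. Sf3b6 had 64.8 RPKM in WT and 57.8 in KO, Hnrnpdl 94.0 and 96.0 RPKM, and Hnrnpll 33.9 and 36.3 RPKM. The small SF3b subunit was thus lower in KO, like Sf3b5, and both hnRNP relatives were higher.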

How the data were processed

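The measurement was RNA sequencing of sorted nephron progenitors, with 1 library per genotype. The submitters' processing notes name CASAVA 1.8, Novoalign 2.08.02 and FastQC, beside the builds GRCm38 and mm10, without saying what each was used for. How reads were counted, and by which strand, is not given in the sources used here, nor is the handling of reads with several matches. The table deposited by the authors holds, per the file headers, 1 read density per library, a fold ratio, and p-values before and after correction. The authors also deposited a signed fold, a score below 0 where KO was lower by their scaling between the libraries. The folds of genes at 0 in 1 library are whole steps, taken as whole reads: 150 of 171 genes in WT and 70 of 75 in KO, within 0.01 of a read. The deposited density is read as RPKM because these reads, the exon length and the density then implied a common library depth. For 101 of 149 and 48 of 67 such genes with a model the depth was the same within 0.5%, and read estimates are approximate. The deposited p-value was 0 for 17 members, and the largest corrected p-value among members was 0.0330. Deposited values are quoted as such and no p-value was computed here.

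Of 8 symbols on several rows, the row with the highest mean density was kept. Differences used a pseudocount of 1, and the size rule was 1.5-fold. GC content and 50-base windows of the longest coding transcript, and the length of all exons joined, came from GENCODE vM21, with models for 70 members. Python 3.11.15, pandas 2.3.3, numpy 2.4.6 and scipy 1.17.1 were used, and the analysis was tested on simulated data. Genes named with values were Trp53 and Six2, the 6 highest and 6 lowest members, the most abundant and extreme members of each class, members chosen for their biology, and the extreme genes of each list; other members were named after their values were seen, to account for the members by class. The values of 1 member are not reported here, though counts and medians include it. The members, lists, classes, floor and rules were chosen with earlier results of these data known. Alternatives covered the pseudocount, floor, scaling, size rule and the adjustment for GC content and length. The linear fit and the removal of members with shared sequence were chosen after seeing the data.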

Additional observations from a re-analysis of the deposited data

How the results depend on the processing

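No paired analysis was possible because the labels give 1 sample per group. The median difference of the members over the floor, 0.071, was 0.14 with both libraries centred on the median of all genes and 0.13 with the authors' scaling. It became -0.071 after the adjustment for GC content and length in bins and -0.053 with the linear fit. The medians of all genes were then -0.072 and -0.056. The split of 38 higher and 24 lower became 14 and 47 with the bins and 21 and 40 with the linear fit. Of all genes, 27% were higher with the bins and 34.3% with the linear fit. At 1.5-fold, the count of 0 higher became 1 (Hnrnpa1) when centred and 1 with the authors' scaling, and the count of 0 lower became 1 (Snrpf) with the bins and 1 with the linear fit. At a log2 difference of 0.32 or more the counts were 3 higher and 1 lower. Other pseudocounts (0.25 and 4), no floor and a floor at the 75th percentile kept the direction and the counts of 0. With the stricter floor and with a 2-fold rule, the counts of 0 were fixed in advance. Without a floor they rest on the pseudocount of 1, which puts Rbm47 at -0.51, where 0.25 puts it at -0.90. Of 124 single-gene values under an alternative, 7 reversed. With the bins, Hnrnpr became -0.0099, Rbm3 -0.045, Rbm6 -0.097, Sf3b1 -0.14, Snrpb 0.0090 and Snrpb2 -0.20, and Rbm5 became 0.0043 when centred. The cause was not tested. The lowest estimated read number of a member with a gene model is 288, and no setting stands in for a second library.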
